A study of Mus musculus with 6 samples.

Results

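The cytosolic heat shock chaperones and HSF1 were followed as 10 genes: Hspa1a, Hspa1b, Hspa8, Hsp90aa1, Hsp90ab1, Hsph1, Dnajb1, Hspb1, Fkbp4 and their transcription factor Hsf1. They were found among the 55335 genes of the count tables by matching Ensembl identifiers, without the version, to these symbols in GENCODE release M21, and all 10 were present. RNA came from B16 (B16-BL6) mouse melanoma cells, a cultured tumor line of melanocyte origin, with 3 libraries of scrambled control cells and 3 of IFNγR1KO cells. Scrambled control cells received lentiviral CRISPR-Cas9 with a guide against GFP, and IFNγR1KO cells received the same vector with a guide against Ifngr1, the ligand-binding chain of the IFN-γ receptor. Both were selected with puromycin, and single clones were grown out. The cells were seeded overnight, and the sources used here name no interferon treatment of these cultures and do not say how many clones were sequenced. The 3 libraries of a group are cultures seeded in triplicate, and p-values measure the spread between these cultures. Whether that spread includes differences between clones is not known, so it cannot be read as a spread between clones. In bulk RNA, fewer cells expressing a gene and less of its RNA per cell cannot be told apart.

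Many cytosolic chaperones bind unfolded segments of proteins and release them in cycles driven by ATP. HSP70 proteins (Hspa genes) receive substrates from J-domain proteins such as Dnajb1, and HSP110 proteins such as Hsph1 exchange their nucleotide. HSP90 proteins (Hsp90aa1, Hsp90ab1) complete the folding of kinases and steroid receptors with co-chaperones such as Fkbp4, while small heat shock proteins such as Hspb1 hold unfolded proteins without ATP. HSF1 is held inactive by chaperones in unstressed cells, and proteotoxic stress lets it form trimers that bind heat shock elements, inverted repeats of the letters GAA, in front of these genes.

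The promoters of 6 of the 10 genes were in the RefSeq table (GRCm38.p6) and the other 4 (Hspa8, Hsp90aa1, Hsp90ab1 and Hsf1) were not used. Each window ran from 250 bases before to 50 after a start site. It was searched for an element pair, GAANNTTC or TTCNNGAA, each of which reads the same on both strands. Stretches of 80 bases before the start site are shown 5′ to 3′ on the strand of the gene because they hold the pairs nearest the start or, for Dnajb1, a comparable stretch without one. Capitals mark the 8 letters of a pair:
Hspa1a, chr17:34972211-34972290, minus strand: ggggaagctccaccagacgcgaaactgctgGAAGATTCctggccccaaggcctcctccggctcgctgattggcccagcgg
Hspa1b, chr17:34959293-34959372, minus strand: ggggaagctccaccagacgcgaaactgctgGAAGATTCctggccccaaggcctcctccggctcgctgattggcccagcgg
Hspb1, chr5:135887772-135887851, plus strand: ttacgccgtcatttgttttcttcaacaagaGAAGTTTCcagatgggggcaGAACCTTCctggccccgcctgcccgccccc
Hsph1, chr5:149636337-149636416, minus strand: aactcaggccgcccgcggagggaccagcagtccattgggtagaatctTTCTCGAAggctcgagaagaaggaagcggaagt
Fkbp4, chr6:128438758-128438837, minus strand: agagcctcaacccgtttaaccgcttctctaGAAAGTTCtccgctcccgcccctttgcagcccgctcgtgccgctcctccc
Dnajb1, chr8:83608065-83608144, plus strand: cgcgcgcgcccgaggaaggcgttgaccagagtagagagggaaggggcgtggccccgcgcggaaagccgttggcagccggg

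A pair was found for 5 of the 6 genes, and 17.0% of the 27025 gene symbols in the table hold one in any of their windows. Hspa1a and Hspa1b were identical over the stretch shown and differed at 4 of 300 positions of the whole window. Hsph1 also held a run of 3 units (GAA and TTC in alternation with 2 bases between them, searched on both strands and overlapping the pairs), TTCTGGAAAGTTC, between positions 37 and 49 after its 5′-most start site. Such a run was found in 0.603% of the 32851 windows. No pair was found in either window of Dnajb1. A match of letters is a description of the sequence and shows no binding.

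**Figure D1:**
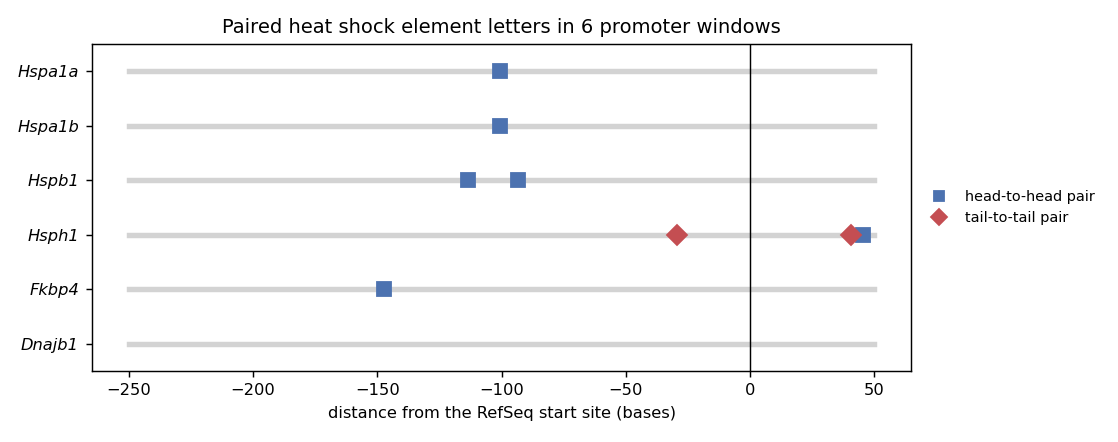
Position of paired heat shock element letters (squares, head-to-head pairs; diamonds, tail-to-tail pairs) in bases from the 5′-most RefSeq start site, with the window of 300 bases in grey. Hspa1a and Hspa1b carry a pair at the same place, Hsph1 carries pairs on both sides of the start, and Dnajb1 carries none.

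The libraries held between 9402640 and 10579788 counts on genes in scrambled control and between 6698956 and 7409479 in IFNγR1KO cells, so every IFNγR1KO library was shallower. Levels are given as CPM, counts per 1000000 counts on genes, corrected by edgeR's TMM factors, and 1 count was worth 0.0966 to 0.142 CPM. Fitted log2 fold changes compare IFNγR1KO with scrambled control, and a gene was called changed at an adjusted p under 0.05 (quasi-likelihood test of edgeR, Benjamini-Hochberg over all 13642 tested genes). Ifngr1 was at 11.5 ± 0.0901 CPM in IFNγR1KO and 15.9 ± 1.35 CPM in scrambled control cells (SD over 3 libraries each; log2 fold change -0.47, adjusted p = 0.0729 from edgeR), and the groups did not overlap. The 7 melanocyte lineage markers summed to between 27898 and 34659 CPM in every library, none of them was called, and Pmel and Mlana had the highest levels per kb. Leukocyte markers summed to at most 0.109 CPM, endothelial markers to at most 0.217 CPM and epithelial markers to at most 0.760 CPM. Fibroblast markers summed to between 4.38 and 5.97 CPM in scrambled control and between 6.25 and 8.72 CPM in IFNγR1KO cells. Among them Col1a1 was called higher (log2 fold change 1.96, adjusted p = 0.0017 from edgeR). Pdgfra went the other way and was not called (log2 fold change -0.77, adjusted p = 0.0866 from edgeR). Dcn had at most 1 count in a library and was not tested. The part of these markers in the results was not tested. Scrambled control replicate 3 and IFNγR1KO replicate 12 stood apart within their groups: genes with under 1500 exonic bases had a median deviation from the group mean of -0.17 and -0.15 in these libraries, on the log2 scale, against 0.03 to 0.14 in the other 4.

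Members of the HSP70, HSP110, HSP90 and J-domain classes were lower in IFNγR1KO cells, and Hsf1 was not called. Of the 10 genes, 8 passed the filter on low counts, 4 fell and 0 rose (0 also at an unadjusted p under 0.05 and by DESeq2). The 4 that fell were Hsph1, Hspa8, Hsp90aa1 and Dnajb1, at 44.8%, 47.4%, 59.6% and 65.2% of the scrambled control level. Over all tested genes 7.62% were called lower and 7.73% were called higher. Hspa8 and Hsph1 also passed an absolute log2 fold change above 1, as did 1.96% of tested genes in the same direction. In 6 of the 8 tested genes every IFNγR1KO library was below every scrambled control library, which held for 16.6% of all tested genes. The median log2 fold change of the 8 was -0.53, beside -0.0015 over all tested genes. Leaving out scrambled control replicate 3 and IFNγR1KO replicate 12 together was chosen after seeing the data. In that fit 6 of the 8 fell, with Fkbp4 and Hsp90ab1 added, and the median of the 8 was -0.54. DESeq2's Wald test also called these 6. Lower calls over all genes were 1617 without the 2 libraries and 1102 with DESeq2, against 1039 in the main fit. Together the 10 genes took 0.796%, 0.808% and 0.892% of the counts on genes in scrambled control, against 0.517%, 0.560% and 0.590% in IFNγR1KO libraries.

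**Figure D2:**
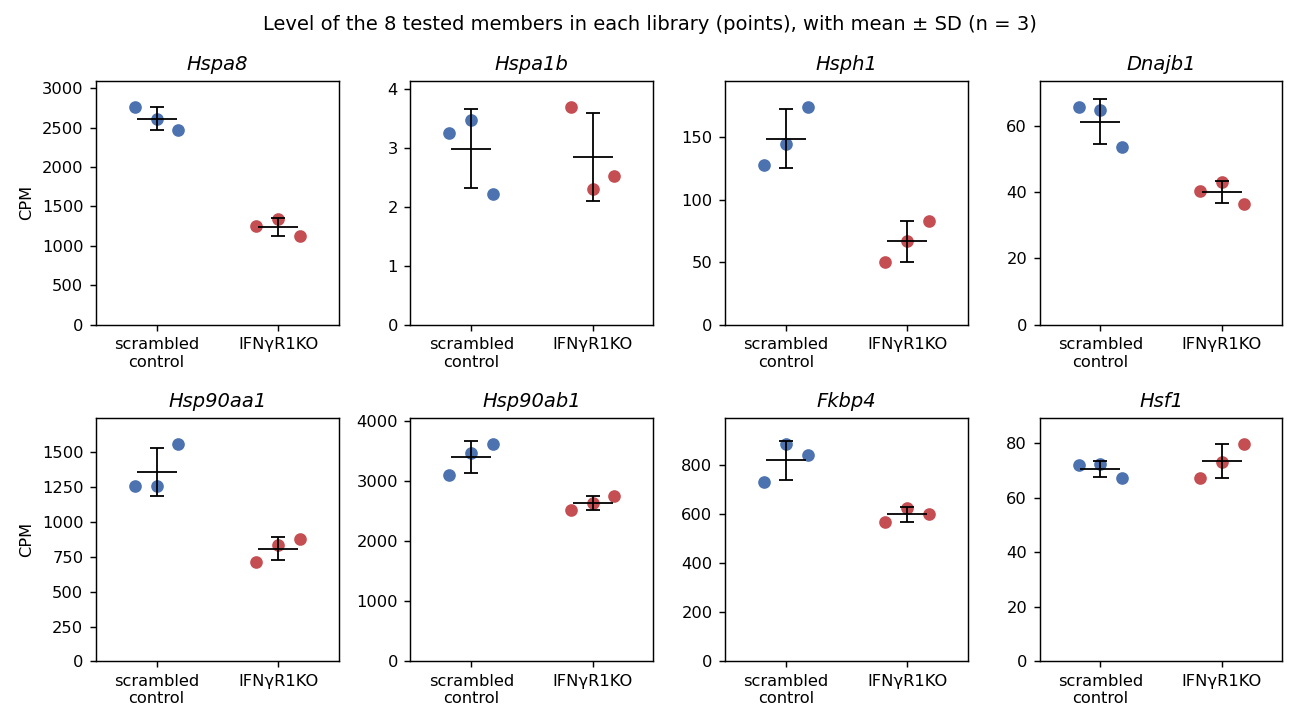
CPM of the 8 tested genes in each library (points, from left to right replicates 1, 2 and 3 of scrambled control in blue and 10, 11 and 12 of IFNγR1KO in red), with the mean and SD (n = 3) in black and every axis starting at 0. The groups are separate in 6 panels and overlap for Hspa1b and Hsf1.

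Levels per kb of exon were divided by all annotated exonic bases of a gene, which can exceed the length of its transcript. For Hsf1 these were 7099 bases, against 2104 in its longest coding transcript, and for Dnajb1 3204 against 2996. The order of genes given here holds for that length only and was not tested with transcript lengths. Hsp90ab1 had the highest level in scrambled control cells, at 1134 ± 88.8 CPM per kb (SD, n = 3). Hspa8 followed at 608 ± 33.6, Hsp90aa1 at 345 ± 44.3 and Fkbp4 at 292 ± 28.5 CPM per kb. Each of these was separate from the next over the 3 libraries, with Hsp90aa1 and Fkbp4 close (lowest 319 against highest 316 CPM per kb). These levels count uniquely placed reads only. Of the 50-base words in their transcripts, 74.8% of Hspa8 and 58.5% of Hsp90aa1 occur in other genes. For Hsp90ab1 this was 4.49% and for Fkbp4 0%. The places of Hspa8 and Hsp90aa1 in this order are therefore uncertain. Hsph1, at 20.5 ± 3.25, and Dnajb1, at 19.1 ± 2.09 CPM per kb, overlapped. Hsf1 was at 9.95 ± 0.416, Hspa1b at 1.07 ± 0.240 and Hspb1 at 0.323 ± 0.132 CPM per kb, and Hspa1a had no counts. In IFNγR1KO cells Hsp90ab1 and Hspa8 again held the highest levels per kb, at 880 ± 37.2 and 288 ± 25.5. There Fkbp4 (214 ± 10.6) overlapped with Hsp90aa1 (206 ± 21.3 CPM per kb), and Hsph1 (9.17 ± 2.23) overlapped with Dnajb1 (12.5 ± 1.05 CPM per kb).

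Hspa8 (ENSMUSG00000015656.17, chromosome 9 of GRCm38, 40800984 to 40810087) encodes HSC70, the constitutive HSP70 of the cytosol. Scrambled control libraries held 25415, 26279 and 25557 of its counts and IFNγR1KO libraries 8838, 9903 and 7994, or 2759, 2615 and 2470 CPM against 1256, 1342 and 1124 CPM. The highest IFNγR1KO library was far under the lowest scrambled control library, and the log2 fold change was -1.08 (SE, the standard error of the fit, 0.16, edgeR adjusted p = 0.00089). Leaving out any 1 of the 6 libraries kept the call, with an adjusted p between 0.00027 and 0.0087. Of the 50-base words in its transcript, 74.8% also occur in transcripts of other genes, mostly processed pseudogenes, so reads from these stretches may not have been placed at Hspa8. The 12 such genes in the tables held between 4.53% and 5.51% as many counts as Hspa8 in each library. They include Gm15459, with 460, 548 and 511 counts in scrambled control and 161, 215 and 168 in IFNγR1KO libraries, and Gm8355, with 269, 308 and 315 against 95, 130 and 77. Both were chosen after their values were seen, and their counts fell on the same side as those of Hspa8. The snoRNA genes Snord14c, Snord14d and Snord14e, whose exons lie under annotated exons of Hspa8, had 0 counts in every library.

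The stress-inducible HSP70 genes Hspa1a and Hspa1b lie near each other on chromosome 17, from 34969190 to 34972156 and from 34956436 to 34959238. Hspa1b had 30, 35 and 23 counts in scrambled control and 26, 17 and 18 in IFNγR1KO libraries, which are 3.26, 3.48 and 2.22 against 3.69, 2.30 and 2.53 CPM. The groups overlapped, and the log2 fold change was -0.07 with a 95% confidence interval from -0.74 to 0.60 (adjusted p = 0.910 from edgeR). That interval spans both directions. Hspa1a had 0 counts in all 6 libraries, where 3 counts, the limit that a count of 0 allows, correspond to 0.290 to 0.426 CPM (counting error only). The genes share 58.8% of the 50-base words of Hspa1a and 62.3% of those of Hspa1b, reads placed at several sites were not counted, and 19.0% of the exonic bases of Hspa1a lie under Gm20481 on the other strand, which had 0 or 1 count per library. The level of Hspa1a is therefore uncertain, and both values describe uniquely placed reads. The 3 genes with the pattern most like that of Hspa1b over the 6 libraries, among 11061 genes with at least 5 CPM, were Gm8566, Htatip2 and Llph-ps2, with a root mean square difference of 0.0782, 0.0826 and 0.0845 in centred log2 CPM. At 17 to 35 counts the pattern of Hspa1b carries much counting error. The nearest of so many genes are close by selection, and their likeness was not tested.

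Hsph1, the HSP110 exchange factor, lies on chromosome 5 from 149614287 to 149636376 and carries the run of 3 heat shock element units given above. It had 1174, 1451 and 1801 counts (127, 144 and 174 CPM) in scrambled control and 354, 494 and 588 counts (50.3, 66.9 and 82.7 CPM) in IFNγR1KO libraries. The groups were separate, and replicates 3 and 12, the libraries with low values of short genes, were the highest of their groups. The log2 fold change was -1.16 (SE 0.19, edgeR adjusted p = 0.0015). The call held in all 6 fits that left out 1 library. No 50-base word of its transcript occurs in another gene. Hspa4, its constitutive relative, named after its values were seen, had a log2 fold change of -0.27 (adjusted p = 0.294 from edgeR), with 577 ± 77.0 CPM in scrambled control and 479 ± 57.5 CPM in IFNγR1KO cells (SD, n = 3 each).

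Dnajb1 encodes HSP40, the J-domain partner of inducible HSP70, on chromosome 8 from 83608193 to 83612653. Its 605, 650 and 555 counts in scrambled control were 65.7, 64.7 and 53.6 CPM, and its 285, 318 and 259 counts in IFNγR1KO were 40.5, 43.1 and 36.4 CPM. The ranges were separate, with a log2 fold change of -0.62 (SE 0.14, edgeR adjusted p = 0.0118). Without scrambled control replicate 2 the adjusted p was 0.0566, and in the 5 other such fits the call held.

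Of the HSP90 paralogs, Hsp90aa1 was called lower and Hsp90ab1 was not. Hsp90aa1, the stress-inducible HSP90α gene on chromosome 12 from 110690605 to 110702728, measured 1258, 1256 and 1559 CPM in scrambled control libraries, against 715, 834 and 876 CPM with IFNγR1KO. All 3 IFNγR1KO values were lower than any scrambled control value, and the log2 fold change was -0.75 (SE 0.16, edgeR adjusted p = 0.0086). Without IFNγR1KO replicate 10 the adjusted p was 0.0586 and without replicate 11 it was 0.0519. Its transcript shares 58.5% of its 50-base words with other genes, and the 4 that are in the tables held between 2.14% and 3.14% as many counts. Hsp90ab1, the constitutive HSP90β gene on chromosome 17 from 45567775 to 45573271, measured 3107, 3469 and 3626 CPM in scrambled control libraries, against 2529, 2634 and 2752 CPM with IFNγR1KO. These ranges did not overlap either, but the log2 fold change of -0.37 (standard error 0.16, 95% confidence interval -0.71 to -0.02) was not called by edgeR (adjusted p = 0.147), whereas DESeq2 gave an adjusted p of 0.0300.

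Fkbp4 encodes FKBP52, the immunophilin that joins HSP90 on steroid receptors, on chromosome 6 from 128429735 to 128438677. Scrambled control libraries had 729, 884 and 838 CPM, against 566, 625 and 600 CPM with IFNγR1KO. Every IFNγR1KO library was lower, with a log2 fold change of -0.45 (SE 0.15, edgeR adjusted p = 0.0551), which missed the threshold, and DESeq2 gave an adjusted p of 0.0077. Hspb1, which encodes the small heat shock protein HSP25, had few reads, with 2, 3 and 5 counts in scrambled control and 0, 0 and 2 in IFNγR1KO libraries, did not pass the filter and was not tested. A processed pseudogene, Hsp25-ps1, shares 51.7% of the 50-base words of Hspb1 and had at most 3 counts.

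Hsf1, on chromosome 15 from 76477422 to 76501913, gave 72.2, 72.5 and 67.3 CPM in scrambled control libraries, against 67.5, 73.0 and 79.9 CPM with IFNγR1KO. The ranges overlapped, and the log2 fold change was 0.06 (SE 0.13, edgeR adjusted p = 0.824), with a 95% confidence interval from -0.22 to 0.34. Its sign turned without IFNγR1KO replicate 12 (-0.01). These are amounts of RNA and do not report the trimer state or phosphorylation of HSF1. The 3 genes with the most similar pattern, among 11060, were Fam53a, Phlda1 and Bid (root mean square difference 0.0296, 0.0355 and 0.0362 in centred log2 CPM over 6 libraries). They were selected as the nearest, and their likeness was not tested. Of the 12 genes listed as HSF family members and regulators of HSF1, 9 were tested. By edgeR or DESeq2 0 were called, with 1 at an unadjusted p under 0.05 (higher). Over all tested genes edgeR called 7.62% lower and 7.73% higher, and the list was not tested against these shares. In that list, Hsf2, named after its values were seen, had a log2 fold change of -0.08 (adjusted p = 0.803 from edgeR). Vcp and Hsbp1, the 2 of the list with the highest level per kb, had -0.11 and -0.12.

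Ratios of 2 counts of the same library do not depend on scaling between libraries. With 3 libraries against 3, a two-sided exact permutation test cannot go below p = 0.1. Such a test was run on 3 ratios, planned as inducible over constitutive genes. Hsp90aa1 over Hsp90ab1 had a log2 ratio of -1.30, -1.47 and -1.22 in scrambled control and of -1.82, -1.66 and -1.65 in IFNγR1KO libraries. All 3 IFNγR1KO values were lower (difference -0.38, p = 0.1, adjusted p = 0.15, exact permutation test), with the inducible paralog 1.30-fold lower relative to the constitutive one, a p at the limit of the design. Hspa1a and Hspa1b summed over Hspa8 had a log2 ratio of -9.70, -9.53 and -10.1 in scrambled control and of -8.38, -9.14 and -8.76 in IFNγR1KO libraries. Here the inducible genes were 2.02-fold higher relative to the constitutive one (difference 1.01, p = 0.1, adjusted p = 0.15, exact permutation test), with Hspa8 as the gene that fell and Hspa1b at 17 to 35 counts. Dnajb1 over Dnaja1 overlapped between the groups (difference 0.16, p = 0.6, adjusted p = 0.6, exact permutation test), both genes being lower in IFNγR1KO cells. Dnaja1 is also in the list of heat shock inducible genes below, so this ratio does not set an inducible against a constitutive gene.

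**Figure D3:**
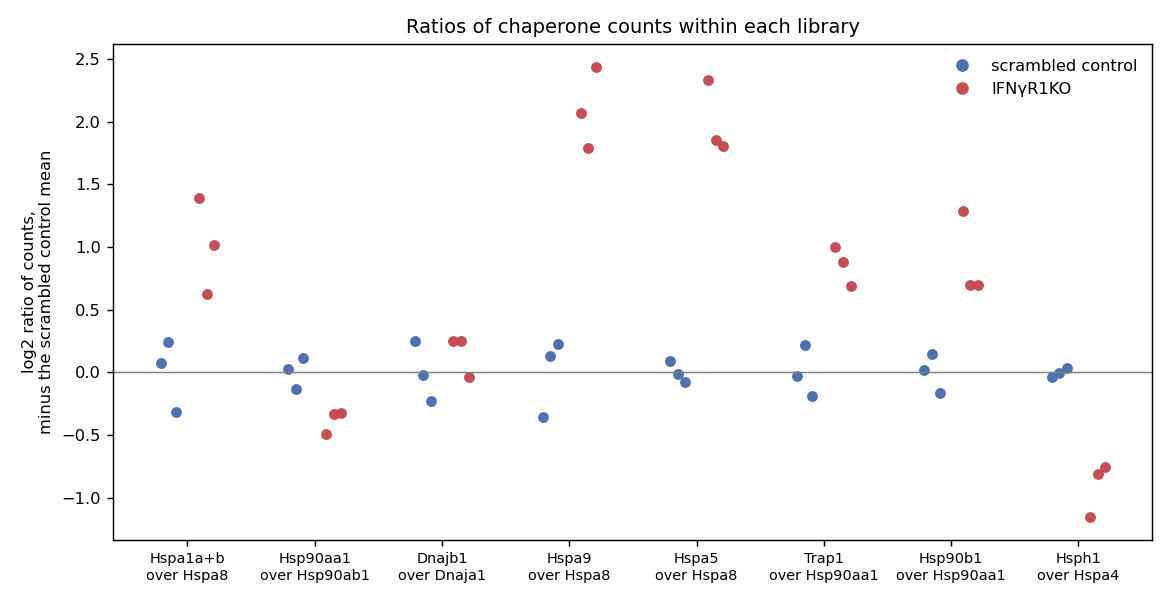
Log2 ratio of the counts of 2 genes in each library, minus the scrambled control mean of that ratio (blue, scrambled control; red, IFNγR1KO; 3 libraries each). The groups overlap for Dnajb1 over Dnaja1, and are separate for the other 7 ratios, of which Hspa9 over Hspa8 has the largest difference (2.10).

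Among other chaperones and co-chaperones of the cytosol most values were negative and few were called. The 6 lists written for them, on HSP70 relatives, J-domain proteins, exchange factors, HSP90 co-chaperones, small heat shock proteins and the TRiC chaperonin with prefoldin, hold 73 genes, of which 67 were tested. Of these 9 fell and 4 rose, 50 had a negative and 17 a positive log2 fold change, and the median was -0.13. Over all tested genes 7.62% were lower and 7.73% higher. The 4 of 67 that rose are near that background share. The 9 that fell are a larger share, a difference that was not tested. This count of lower genes depended on the libraries used. Without scrambled control replicate 1 there were 5 lower genes, and without replicate 2 there was 1. Without IFNγR1KO replicate 10 there were 3, and without replicate 11 there was 1. Over all tested genes these fits gave 843, 552, 525 and 457 lower genes, in the same order, against 1039 in the main fit. Without scrambled control replicate 3 and IFNγR1KO replicate 12 together there were 16 lower genes in these lists and 1617 over all tested genes. The 4 higher genes were 0 without scrambled control replicate 2 or IFNγR1KO replicate 11, and 1 without scrambled control replicate 3 or IFNγR1KO replicate 10. Over all tested genes these fits gave 535, 571, 899 and 570 higher genes, in the same order, against 1054 in the main fit.

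Among HSP90 co-chaperones, 5 of 19 tested genes fell and 0 rose by edgeR (10 and 0 at an unadjusted p under 0.05, 6 and 0 by DESeq2). Over all tested genes edgeR called 7.62% lower and 7.73% higher, and the difference was not tested. Ahsa1, which stimulates the ATPase of HSP90, went from 201 ± 18.1 to 134 ± 10.1 CPM (SD, n = 3 each; log2 fold change -0.58, adjusted p = 0.0131 from edgeR). The immunophilin Fkbp5 had a log2 fold change of -0.79 (adjusted p = 0.0208) and the cyclophilin Ppid of -0.48 (adjusted p = 0.0328, both from edgeR). Chordc1 and Cacybp, with -0.43 and -0.46, were the other two. None of the 5 was called in all 6 fits that left out 1 library. Stip1, which bridges HSP70 and HSP90 and was named after its values were seen, had a log2 fold change of -0.41 (adjusted p = 0.0514 from edgeR).

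Among 13 tested J-domain proteins, Dnaja1, a partner of HSC70, fell from 265 ± 23.4 to 155 ± 7.43 CPM (SD, n = 3 each; log2 fold change -0.77, adjusted p = 0.0025 from edgeR), and this call held in all 6 fits. Dnajb2 rose by 0.50 (adjusted p = 0.0266 from edgeR), a call that held in 2 of the 6 fits. Among the J-domain proteins 1 was thus called lower and 1 higher. Of 9 exchange factors and adaptors only Bag2 was called. It fell by 0.50 (adjusted p = 0.0296 from edgeR), a call that held in 2 of the 6 fits. Over all tested genes edgeR called 7.62% lower and 7.73% higher, and neither list was tested against these shares. Bag3, a stress-inducible exchange factor named after its values were seen, had 39.5 ± 7.79 CPM in scrambled control, against 34.4 ± 4.28 CPM in IFNγR1KO cells (SD, n = 3 each), and was not called (edgeR adjusted p = 0.490).

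Among 7 tested HSP70 and HSP110 relatives, Hspa14 fell by 0.59 (adjusted p = 0.0103 from edgeR) and Hspa1l and Hspa13 rose by 1.63 and 0.70 (adjusted p = 0.0315 and 0.0433 from edgeR). Of the 6 fits that left out 1 library, the call held in 4 for Hspa14, 3 for Hspa1l and 2 for Hspa13. DESeq2 gave an adjusted p of 0.0910 for Hspa1l, and the groups overlapped for Hspa13. Hspa1l had 7, 6 and 4 counts in scrambled control and 9, 20 and 10 in IFNγR1KO libraries, and 71.9% of its exonic bases lie under a gene on the other strand, so its reads are uncertain. Hspa13 is a protein of microsomes rather than a cytosolic chaperone. Of 5 tested small heat shock proteins, Cryab (αB-crystallin) fell by 0.46 (adjusted p = 0.0419 from edgeR) and Hspb11, a subunit of ciliary transport, rose by 0.80 (adjusted p = 0.0337 from edgeR). The call held in 2 of the 6 fits for Cryab and in 1 for Hspb11, where DESeq2 gave an adjusted p of 0.0504. Cryab shares 17.0% of its exonic bases with Hspb2 on the other strand. Of 14 genes of TRiC and prefoldin, 0 were called by edgeR or DESeq2, and 0 had an unadjusted p under 0.05. Cct5 and Cct2, the members of that list with the highest level per kb, had log2 fold changes of -0.10 and -0.12. Over all tested genes edgeR called 7.62% lower and 7.73% higher, and none of these lists was tested against these shares.

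In a further list of 20 heat shock inducible genes, which shares members with the lists above, 6 fell and 1 rose, with a median log2 fold change of -0.29. Over all tested genes 7.62% were called lower and 7.73% higher, and this difference was not tested. Of the 6 that fell, Dnaja1, Ahsa1, Chordc1, Cacybp and Cryab are given above. Hmox1, the heme oxygenase that also answers to oxidative stress, rose from 104 ± 14.3 to 192 ± 16.9 CPM (SD, n = 3 each; log2 fold change 0.88, adjusted p = 0.0019 from edgeR). Hmox1 was called in all 6 fits that left out 1 library.

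**Figure D4:**
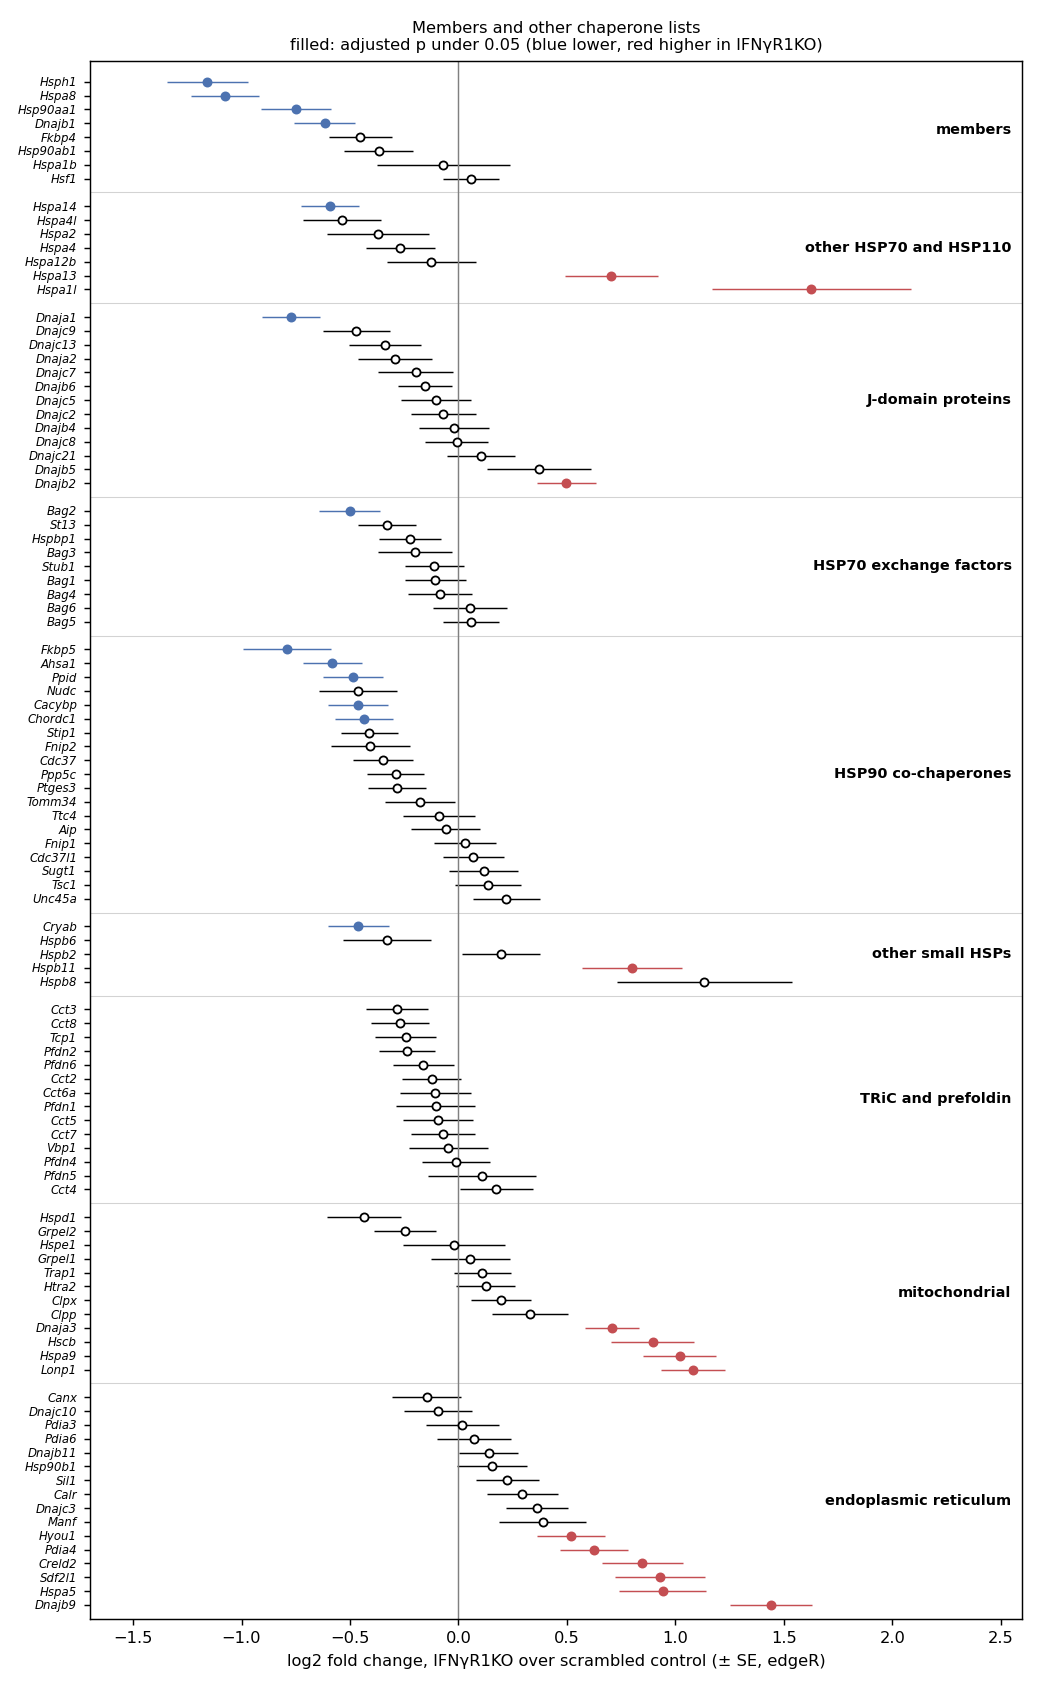
Log2 fold change of IFNγR1KO over scrambled control with its standard error from edgeR, for the 8 tested genes (top) and the tested genes of 8 other chaperone lists; filled points have an adjusted p under 0.05. Filled points lie to the left among the 8 genes and HSP90 co-chaperones, are absent from TRiC and prefoldin, and lie to the right in the mitochondrial and endoplasmic reticulum lists.

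Over all tested genes edgeR called 7.73% higher and 7.62% lower, and no list was tested against these shares. Of 12 mitochondrial chaperones and proteases 4 rose and 0 fell, and of 16 chaperones of the endoplasmic reticulum 6 rose and 0 fell by edgeR. DESeq2 gave the same counts, and at an unadjusted p under 0.05 there were 4 higher and 1 lower mitochondrial genes and 7 higher and 0 lower genes of the endoplasmic reticulum. Hspa9 (mortalin, the mitochondrial HSP70) rose by 1.02 on the log2 scale (adjusted p = 0.0019 from edgeR), from 407 ± 64.8 to 825 ± 113 CPM (SD, n = 3 each). The mitochondrial protease Lonp1 rose by 1.08 and the J-domain protein Dnaja3 by 0.71 (adjusted p = 0.00055 and 0.0026 from edgeR). The fourth was the iron-sulfur cluster co-chaperone Hscb, which rose by 0.90, and all 4 were called whichever library was left out. Hspd1 and Hspe1, the chaperonin pair of the matrix, were named after their values were seen and had log2 fold changes of -0.44 and -0.02 and were not called. In the endoplasmic reticulum, Dnajb9 rose by 1.44, Hspa5 (BiP) by 0.94 and Creld2 by 0.85 (adjusted p = 0.0004, 0.0081 and 0.0092 from edgeR). Hspa5 was not called without scrambled control replicate 2 (adjusted p = 0.0510), and the count of 6 was 3 without that library. Higher calls over all tested genes were 535 in that fit, against 1054 in the main fit.

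Ratios of HSP70 and HSP90 paralogs across compartments were chosen after the values were seen. Hspa5 over Hspa8 had a log2 ratio of 0.06, -0.05 and -0.11 in scrambled control and of 2.30, 1.83 and 1.77 in IFNγR1KO libraries. As counts of Hspa5 per count of Hspa8 these are 1.04, 0.968 and 0.929 against 4.93, 3.55 and 3.42, so the ratio differed 3.99-fold between the groups (log2 difference 2.00). Since Hspa5 was called higher and Hspa8 lower before the ratio was chosen, it restates those calls and no test is given. Hspa9 over Hspa8 rose by 2.10 on the same scale, with all 3 IFNγR1KO libraries above the scrambled control libraries. For HSP90, Hsp90b1 (GRP94) over Hsp90aa1 and the mitochondrial Trap1 over Hsp90aa1 were higher by 0.89 and 0.86, while Hsp90b1 and Trap1 themselves had log2 fold changes of 0.16 and 0.11 and were not called. Hsph1 over Hspa4 was lower by 0.91 (log2 ratio difference -0.91), and the groups were separate.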

How the data were processed

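Paired-end poly(A)-selected RNA-seq of 3 scrambled control and 3 IFNγR1KO cultures was used. The authors aligned reads to GRCm38 with STAR 2.7.5a counted them per gene with htseq-count (HTSeq 0.11.2) and deposited unnormalized counts, 1 table per library. The annotation release and strand setting are not given in the sources used here. Between 46.9% and 47.7% of the tabulated reads were assigned to no gene and 3.76% to 4.61% aligned to several places; both were left out.

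In R 4.3.3, edgeR 4.0.16 was applied with filterByExpr (minimum count 10, minimum total 15), TMM factors and the quasi-likelihood test. DESeq2 1.42.0 was an alternative, since the study used DESeq2. Symbols, positions and exonic length came from GENCODE M21, which holds 55154 of the 55335 identifiers. Shared words of 50 bases were counted over its transcripts. Ratios used a pseudocount of 0.5 counts. The tests were tested on simulated counts.

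The members and gene lists were chosen with earlier results of these data known. Named genes were the 10 members, Ifngr1, overlapping genes, up to 3 called genes per list and direction by adjusted p (where none was called, the 2 with the highest level per kb) and the most similar patterns. Alternatives were other tests, normalizations, filters, thinning, and leaving out libraries; adding copies and leaving out 2 libraries together were chosen after seeing the data. A gene that the rule names is not reported here.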

Additional observations from a re-analysis of the deposited data

How the results depend on the processing

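The count of 4 lower members was 3 to 4 when 1 library was left out, 6 with DESeq2, 5 without a filter on low counts, and 2 with an absolute log2 fold change above 1, and 0 members were higher at any setting run. Their median log2 fold change of -0.53 was -0.48 after thinning to the smallest library. With an absolute log2 fold change above 1, 443 genes were higher and 267 lower over all tested genes, 1 and 0 among the other cytosolic chaperones, 2 were higher in mitochondria and 1 in the endoplasmic reticulum. Leaving out 1 library gave 535 to 1372 higher and 457 to 1452 lower genes in all, 0 to 4 higher and 1 to 10 lower other cytosolic chaperones, 0 to 1 lower mitochondrial and 3 to 7 higher endoplasmic reticulum genes. The lower other cytosolic chaperones numbered 5 with library totals alone, and DESeq2 gave 2 higher ones. Without a filter 1 mitochondrial gene was lower. Leaving out scrambled control 3 and IFNγR1KO 12 together, chosen after seeing the data, gave 1617 lower genes in all, 16 lower other cytosolic chaperones, 1 lower mitochondrial gene and a log2 fold change of -0.044 for Hsf1. Leaving out 1 library, Hspa1b ranged from -0.30 to 0.075 and Hsf1 from -0.011 to 0.11, so the sign of neither is set. Adding the counts of near-identical copies, also chosen after seeing the data, left 4 lower members. The cause of these shifts was not tested.

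Hspa1b and Hspb1 are limited by depth, and Hspa1a, Hspa1b, Hspa8, Hsp90aa1 and Hspb1 by reads that could not be placed uniquely. With 3 cultures a group, clone and genotype cannot be told apart. No paired analysis was run, because the groups share no replicate numbers.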
